A study of Mus musculus with 29 samples.

Results

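Lung RNA of mice without Klf15 was compared between 8 h and 4 h after dexamethasone. The comparison took every array labelled as knockout and dexamethasone, 4 at 8 h and 4 at 4 h, which are 8 of the 29 arrays of the study. All mice were C57BL/6, 6 to 8 weeks old, and each array held total lung RNA of 1 sample, described in the labels as a biological replicate. The knockout and wild-type dexamethasone groups had received 2.5 mg/kg of the drug, and the saline groups its vehicle. Beside the 8 arrays stood 3 wild-type arrays at 8 h and 4 at 4 h under dexamethasone, and 4 knockout arrays at 8 h and 3 at 4 h under saline. The remaining 7 arrays, of wild-type mice given saline, entered no difference given here. They did enter the estimate of the spread, the filter on probes and the choice of each gene's brightest probe. The labels call the mice Klf15-/- and name no driver or cell type of the deletion.

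Dexamethasone is a synthetic glucocorticoid that binds the glucocorticoid receptor, a nuclear receptor that moves to the nucleus and changes the transcription of its targets within hours. Among its early targets are brakes on its own action and on inflammation, such as Fkbp5, a cochaperone that lowers the receptor's affinity for hormone, and Tsc22d3, an inhibitor of NF-kB known as GILZ. Klf15 is a Krüppel-like transcription factor, itself induced by the receptor, that acts on amino acid breakdown. The title of the series names feed-forward circuitry of the receptor with Klf15 and the dynamics of expression, and the comparison of 8 with 4 h follows these dynamics where Klf15 is deleted. Clock genes also cycle with the time of day, and saline arrays at the same times are given beside the drug for that reason.

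Each array held 43379 spots other than controls. Between 76.6 and 81.9% of spots were well above background on 8-h arrays, and between 77.2 and 83.3% on 4-h arrays. No spot was saturated. The number of arrays limits the precision. Levels are on a log2 scale on which 0 is the 75th percentile of an array's processed signals, and a difference of 1 is a change of 2-fold. Levels of different genes are not compared. Arrays are called by their replicate numbers, 61 to 64 at 8 h and 57 to 60 at 4 h. The lowest correlation of any pair within the 2 groups was 0.973, for arrays 57 and 58. The ratio of bright to dim probes of the same gene (log2, mean over 2465 genes, relative to the mean of all arrays) lay between 0.0159 and 0.29 on 8-h arrays and between -0.0535 and 0.158 on 4-h arrays. Knockout saline arrays stood apart, at -0.213 to -0.118 at 8 h and -0.37 to -0.223 at 4 h. The saline shift thus differed between the times without overlap. The part of that shift, and of its change between the times, in the comparisons with saline was not tested. Markers of heart muscle, which can come with a lung sample, had a summed level of 37.6 to 76.4 on 8-h arrays and 21.9 to 49.2 on 4-h arrays (linear scale, 14 genes). Adipocyte markers summed to 26 to 58.5 at 8 h and 17.1 to 29.4 at 4 h (12 genes). None of the 15 heart and 12 adipocyte markers tested was called at an adjusted p under 0.05.

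The targeted gene was read by 2 probes, of which the brighter is used below, and no source used here says whether they lie inside the deleted part. The dimmer Klf15 probe differed by -0.11 between the times (adjusted p = 0.812), and its difference of courses, knockout minus wild type, was 0.91 (adjusted p = 0.353), against 0.04 for the brighter (adjusted p = 0.969). Klf15 stood at 0.54, 1.27, 0.94 and 0.71 on the 4 knockout arrays at 8 h and at 1.15, 1.35, 1.45 and 1.35 on the 4 at 4 h. In wild-type dexamethasone lungs the same probe averaged 3.77 ± 0.25 at 8 h (SD, n = 3) and 4.27 ± 0.08 at 4 h (SD, n = 4), so all knockout arrays lay below these means. The signal in the knockout was above saline, by 0.93 at 8 h (adjusted p = 0.000846), in a comparison that called 43% of all genes (25.8% higher, 17.2% lower), and by 1.93 at 4 h (adjusted p = 3.01e-07, limma), in one that called 42.7% (25% higher, 17.6% lower). Between the times under dexamethasone it differed by -0.46 ± 0.21 (SE, adjusted p = 0.204), which was not called, and 1 array at 8 h overlapped the 4-h range.

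Of 15350 genes tested with limma, 1091 differed between 8 and 4 h at an adjusted p under 0.05, which is 7.11%. At 8 h 507 were higher (3.3%) and 584 lower (3.8%). Counts of called list members below are to be read against these shares, and several lists lie near them. Most changes were small: the median called difference was 0.47 among the higher and -0.50 among the lower genes, and 24 rose and 80 fell by at least 2-fold. The median of all genes was -0.009. The 4 and 4 arrays did not overlap for 10.2% of all genes, 4.36% with 8 h higher and 5.82% with 8 h lower. Each array scaled to its median instead gave 343 higher and 248 lower genes. A fit to the 8 arrays alone called 304 genes, and in it 42 of the 82 called genes named below were still called in the same direction. The plot of all genes shows the called genes on both sides of 0.

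**Figure D1:**
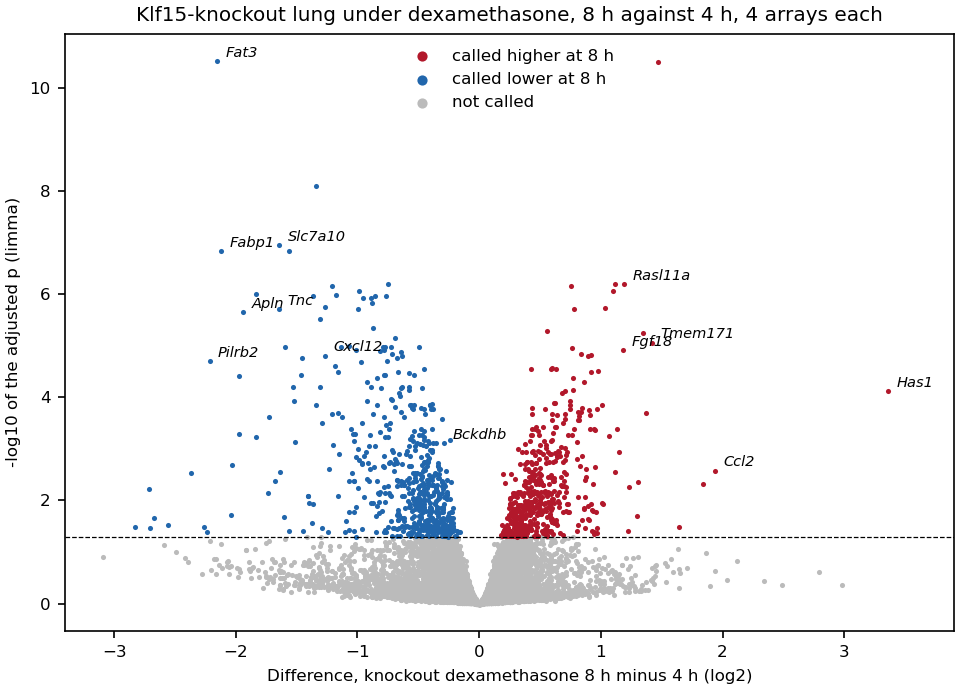
Difference between 8 and 4 h in knockout dexamethasone lung (x axis, log2) against -log10 of the adjusted p (y axis) for each of 15350 genes; red and blue points were called higher (507) and lower (584) at 8 h, and the dashed line is an adjusted p of 0.05. Fat3 lies among the highest points, and Has1 lies farthest to the right at 3.36.

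Has1 and Ccl2 were among the largest rises. Has1, a hyaluronan synthase, stood at -1.19, 0.46, -0.16 and 0.09 at 8 h and at -3.22, -2.58, -3.76 and -4.70 at 4 h. Every 8-h array lay above every 4-h array, and the difference was 3.36 ± 0.48 (10.3-fold, adjusted p = 7.67e-05). Ccl2, the chemokine that draws monocytes, had levels of -2.64, -2.28, -2.23 and -2 at 8 h, against -4.11, -4.13, -4.35 and -4.32 at 4 h. Its groups did not overlap either, and it rose by 1.94 ± 0.39 (adjusted p = 0.00263). Against saline, Ccl2 was 2.07 lower at 4 h (-2.07, adjusted p = 0.000366) and not called at 8 h (0.65, adjusted p = 0.188). Fgf18, a fibroblast growth factor, showed 0.48, 0.54, 0.68 and 0.71 at 8 h and -0.27, -0.14, -0.84 and -1.08 at 4 h. It rose by 1.18 ± 0.14, with no overlap (adjusted p = 1.2e-05), and like Ccl2 it was below saline at 4 h (-1.59, adjusted p = 2.61e-08) and not called at 8 h (-0.13, adjusted p = 0.511).

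Scel, which encodes sciellin, a protein of the cornified envelope, rose by 1.35 ± 0.15 (adjusted p = 5.56e-06). Its 8-h levels were 1.86, 1.53, 1.37 and 1.57, and its 4-h levels were 0.30, 0.20, 0.16 and 0.30. The Ras-related GTPases Rrad (1.37, adjusted p = 0.000199) and Rasl11a (1.19, adjusted p = 6.47e-07), the membrane protein Tmem171 (1.42, adjusted p = 8.7e-06) and the thioesterase Them5 (1.23, adjusted p = 0.00544) also rose, each with all 8-h arrays above all 4-h arrays. Calcb, the gene of a calcitonin gene-related peptide, was higher by 1.22 (adjusted p = 0.0393), but its call was lost on leaving out any 1 array except 63 (adjusted p up to 0.107). Tbx18, a T-box factor, was not well above background on any 4-h array and was at least 1.35-fold higher at 8 h (fitted difference 1.29, adjusted p = 0.02), a call lost without array 57, 60 or 62 (adjusted p up to 0.0676). Quantile normalization, a variance trend, the deposited table and the 8 arrays fitted alone also ended the call of Tbx18. So did normexp, with a difference of 0.18 (adjusted p = 0.313), which is smaller than that bound. The neutrophil chemokine Cxcl5 had a fitted difference of 1.84 (adjusted p = 0.00481), yet it was well above background on 1 array at 8 h and on none at 4 h, so no fold is given. With background correction by normexp Cxcl5 differed by 0.25 (adjusted p = 0.218). Apart from Tbx18, Calcb and Cxcl5, the rises named in this and the preceding paragraph held under every alternative run.

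Fat3, an atypical cadherin, had the lowest p of all genes, though some dim genes had larger fitted falls. Fat3 had levels of -5.09, -4.98, -4.81 and -5.22 at 8 h, against -2.82, -2.90, -3.00 and -2.76 at 4 h. The groups did not overlap, with a difference of -2.15 ± 0.11 (4.45-fold lower, adjusted p = 3.02e-11). Its 2 other probes, both dim, were not called: the dimmest gave -1.54 (adjusted p = 0.293) and the other -0.53 (adjusted p = 0.381). Fabp1, a fatty acid binding protein listed among the markers of alveolar macrophages, was at -0.76, -1.23, -1.28 and -0.68 at 8 h and at 1.10, 1.31, 1.53 and 0.60 at 4 h. The fall of -2.12 ± 0.18 (adjusted p = 1.48e-07) had no overlap, and it held under every alternative. It was the 1 called gene among 12 alveolar macrophage markers, whose median was -0.10 and whose summed level was 140 to 166 at 8 h and 131 to 175 at 4 h. Pilrb2, an activating immune receptor with near-identical relatives, fell by 2.21 on the log2 scale (-2.21 ± 0.28, adjusted p = 1.99e-05), but its other probe gave -0.59 (adjusted p = 0.0581).

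The 6 largest fitted falls, from -2.37 to -2.83, and some others were of dim genes. For 5 of them, well above background on 3 or 4 arrays at 4 h and on none at 8 h, the sizes are bounds. Of the groups compared, only the 4-h group, where they were high, met the rule of 3 such arrays for keeping a probe. Their calls carry that limit. The bounds apply to the scaling used here and did not hold under every alternative. The smallest differences among the alternatives were -0.511 (Hcrtr2), -0.392 (Olfr354), -0.309 (Olfr1156), -0.353 (Olfr518) and -0.277 (Saxo1), all smaller than the bounds. Olfr354, an olfactory receptor gene, was at least 1.81-fold lower (adjusted p = 0.00603). Olfr1156 was at least 1.6-fold lower (adjusted p = 0.00297), the orexin receptor Hcrtr2 at least 3.22-fold (adjusted p = 0.033), Olfr518 at least 2.18-fold (adjusted p = 0.0335) and the microtubule protein Saxo1 at least 1.91-fold (adjusted p = 0.019). Olfr1406 (-2.67, adjusted p = 0.0216), the factor Tfap2b (-2.56, adjusted p = 0.0301) and Disp3 (-2.24, adjusted p = 0.0417) were above background on 2 of the 4 arrays at 8 h. These values rest on few arrays. Leaving out array 57, 58, 61 or 62 ended the calls of Hcrtr2, Olfr518, Olfr1406, Tfap2b and Disp3, leaving out 59 those of Hcrtr2, Olfr518, Tfap2b and Saxo1, leaving out 60 those of Disp3 and Saxo1, leaving out 61 also that of Saxo1, and leaving out 63 or 64 that of Olfr518 (adjusted p up to 0.122). Normexp ended the call of Olfr518 (-0.35, adjusted p = 0.0855), and slide as a fixed block those of Hcrtr2, Olfr518, Olfr1406, Tfap2b, Disp3 and Saxo1 (adjusted p from 0.0819 to 0.139). Olfactory receptor probes may share signal between near-identical genes.

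**Figure D2:**
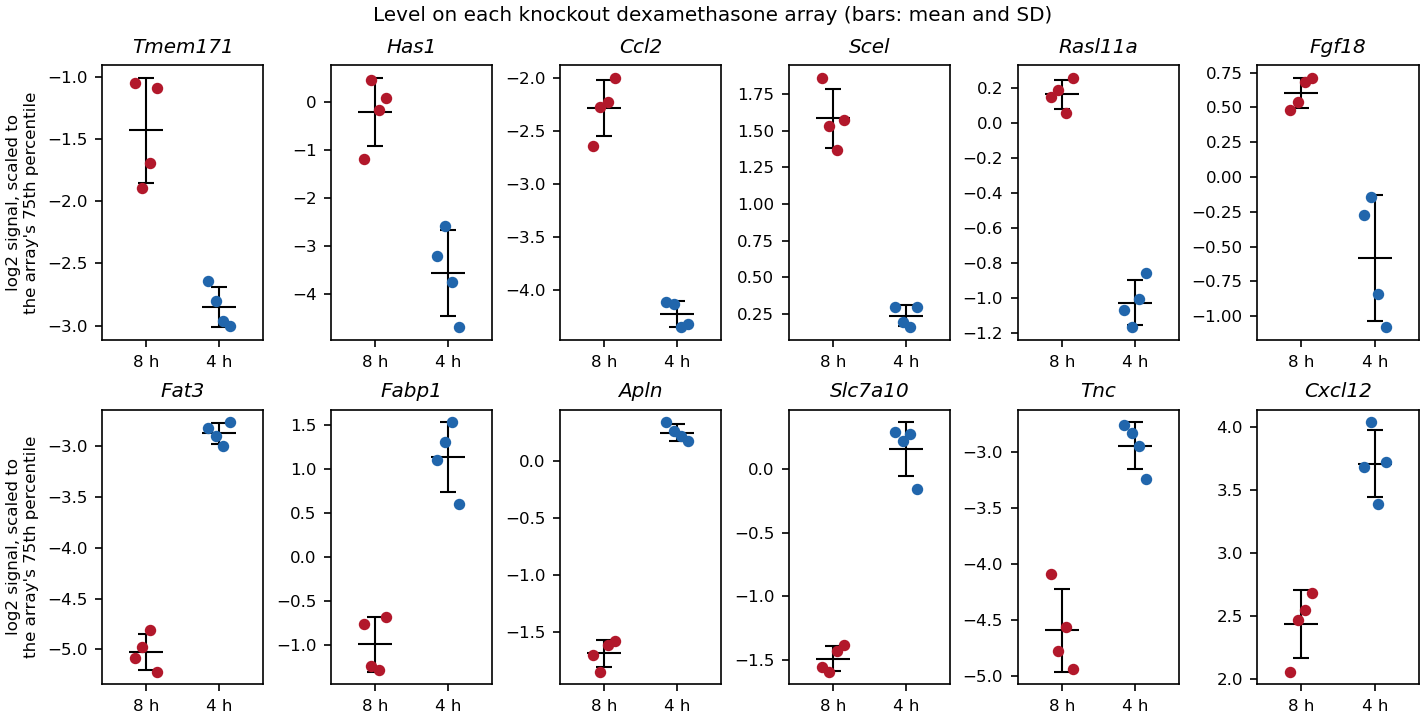
Level of 12 genes on each knockout dexamethasone array (y axis, level as log2, 0 at the 75th percentile of an array), 8 h left of 4 h, with bars for the mean and SD of 4 arrays. The 6 genes of the top row were higher and the 6 of the bottom row lower on every 8-h array than on any 4-h array.

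Genes that glucocorticoids induce moved in both directions in the knockout. Of 45 such genes tested, 3 rose and 3 fell, against 3.3 and 3.8% of all genes, and the median was -0.15. Fkbp5 stood at 1.84, 1.58, 1.12 and 1.10 at 8 h and at 2.58, 2.97, 2.80 and 2.52 at 4 h. The groups did not overlap, yet the difference of -1.31 ± 0.44 missed the threshold (adjusted p = 0.0769). It was called with the mean of its probes (-0.86, adjusted p = 0.00849) and with the 8 arrays fitted alone (adjusted p = 0.0211). Its effect against saline was 1.32 at 8 h (adjusted p = 0.0185) and 4.23 at 4 h (adjusted p = 1.93e-07). The change of that effect between the times was -2.91 (adjusted p = 0.0117), to which the saline arrays contributed a difference of 1.6 (adjusted p = 0.133). All 3 probes of Fkbp5 ran the same way, with -1.31, -0.63 and -0.65 between the times.

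Tsc22d3 had levels of 5.15, 5.2, 5.06 and 5.05 at 8 h, and 5.12, 5.26 and 5.16 on the 3 arrays measured at 4 h, where array 58 gave no value. These overlapped, and the difference was -0.06 (adjusted p = 0.873). The dexamethasone effect on it was 0.58 at 8 h and 1.71 at 4 h, and this change of -1.13 was called (adjusted p = 0.00383) while the saline level itself rose by 1.06 (adjusted p = 0.000409). Per1, a clock repressor and receptor target, differed by -0.15 under the drug (adjusted p = 0.704) and rose by 0.90 under saline (adjusted p = 0.0157), with -1.05 for the change of the effect (adjusted p = 0.0215). The knockout's effect of the drug on Per1 was -0.06 at 8 h (adjusted p = 0.813) and 0.99 at 4 h (adjusted p = 0.000153). Mt2, a metallothionein, was raised by 2.19 at 8 h and 2.22 at 4 h, with -0.22 between the times under the drug (adjusted p = 0.584).

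Cdkn1a, the cell cycle inhibitor p21, was 2.31 above saline at 8 h and 3.02 at 4 h. Its levels of 4.02, 3.43, 3.22 and 3.56 at 8 h overlapped the 4.14, 4.15, 3.85 and 3.87 of 4 h (-0.45, adjusted p = 0.135). Without array 61 that difference was -0.60 and called (adjusted p = 0.0365), as it was with slide as a block or with array weights. The phosphatase Dusp1 (-0.08, adjusted p = 0.907) and the receptor gene Nr3c1 (0.21, adjusted p = 0.164) were not called, though the mean of its probes gave 0.24 for Nr3c1 (adjusted p = 0.0178). Among the 6 called members of the list, Dusp4 rose by 0.64 (adjusted p = 0.00137) and Per2 by 0.50 (adjusted p = 0.00966), whereas Errfi1, an inhibitor of EGF receptor signalling, fell by 0.67 on the log2 scale (-0.67, adjusted p = 0.00399), the G-protein regulator Rgs2 by 0.68 (-0.68, adjusted p = 0.00393) and the stress-induced Sesn1 by 0.50 (-0.50, adjusted p = 0.0266). The call of Sesn1 was lost without array 57, 58, 63 or 64 (adjusted p up to 0.109). Errfi1 had no value on array 58. Median scaling ended the calls of Errfi1 (-0.60, adjusted p = 0.0658) and Sesn1 (adjusted p = 0.188).

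In wild-type lungs under dexamethasone 4 of the 45 rose and 18 fell (median -0.36), where 12.3% of all genes were called, 5.97% higher and 6.37% lower. In knockout lungs under saline 11 rose and none fell (median 0.26), where 1.07% of all genes were called, 0.756% higher and 0.319% lower. For the difference between the drug and saline courses, 1 member was higher and 10 were lower (median -0.47), in a comparison that called 462 genes (3.01%), 1.22% higher and 1.79% lower. That comparison uses the same dexamethasone arrays.

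Clock genes changed in both directions. The mammalian clock is a loop in which Clock and Arntl switch on Per and Cry genes, whose proteins then repress them, with Nr1d1 in a second arm and Dbp, Hlf and Tef as output factors. Of 13 core clock repressors and PAR bZIP factors tested, 3 rose and 3 fell. Cry1 had levels of -1.50, -1.53, -1.57 and -1.70 at 8 h, against -2.56, -2.31, -2.41 and -2 at 4 h, a rise of 0.75 ± 0.11 without overlap (adjusted p = 0.000166). Per2 was at 1.48, 1.65, 1.62 and 1.47 at 8 h and at 0.97, 0.82, 1 and 1.42 at 4 h, where array 60 came close to the 8-h range, and it rose by 0.50 ± 0.12 (adjusted p = 0.00966). The output factor Hlf rose by 0.61 ± 0.09 (adjusted p = 0.00013). Under saline these genes rose by 1.15 (Cry1), 1.12 (Per2) and 0.51 (Hlf), and for none of them was the difference between the drug and saline courses called (adjusted p from 0.0576 to 0.853). The dimmer probes of Cry1 (0.21) and Per2 (-0.46) were not called, the second with the opposite sign.

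Falling clock genes were Nr1d1, Dbp and Ciart. Nr1d1, the repressor REV-ERB alpha, stood at 0.17, -0.40, -0.17 and -0.47 at 8 h and at 1.10, 0.90, 0.68 and 1.26 at 4 h. All 8-h arrays were lower, by 1.20 on average (-1.20 ± 0.21, adjusted p = 0.000851). A second probe gave -1.02 and the dimmest one 0.10. Dbp had 3.86, 3.94, 4.11 and 4.01 at 8 h and 4.91, 4.88, 4.35 and 4.69 at 4 h, a difference of -0.73 ± 0.14 (adjusted p = 0.00179) that held under every alternative, as did the rise of Hlf. Under saline Nr1d1 fell by 0.95 (-0.95, adjusted p = 0.047), while Dbp differed by -0.09 (adjusted p = 0.875). At 8 h the drug effect on Dbp was -1.29 (adjusted p = 2.08e-07), and at 4 h it was -0.65 (adjusted p = 0.00135). The difference between the drug and saline courses was not called for Dbp (-0.645), Nr1d1 (-0.253) or Ciart (-1.246). In the fit to all kept probes its adjusted p was 0.136, 0.864 and 0.256 in that order. Ciart, a repressor named here after its values were seen, was lower by 1.10 (-1.10, adjusted p = 0.0416), with overlapping arrays, and its call was lost without array 59, 60, 61 or 64 (adjusted p up to 0.164).

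**Figure D3:**
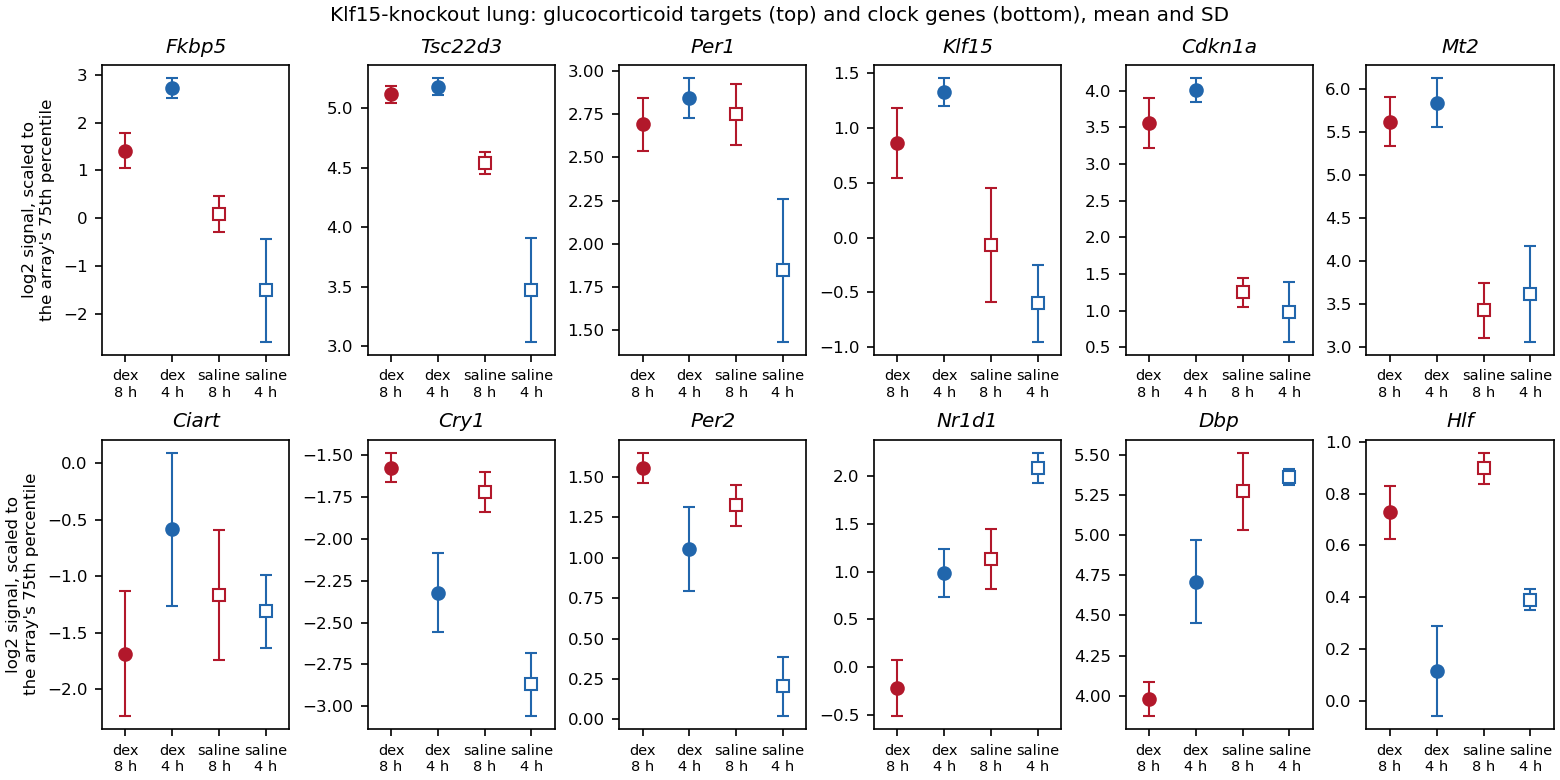
Mean and SD of the level (y axis, level as log2, 0 at the 75th percentile of an array) in the 4 knockout groups, dexamethasone (filled circles) at 8 and 4 h and saline (open squares) at 8 and 4 h, for 6 glucocorticoid targets (top) and 6 clock genes (bottom). Tsc22d3 and Per1 lie at similar levels at 8 and 4 h under dexamethasone and are higher at 8 than at 4 h under saline, while Cry1 and Per2 are higher at 8 h under both.

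The E-box is the site through which Clock and Arntl act, and its letters CACGTG were searched for in the promoters of the 13 repressors and output factors, on both strands, from 250 bases before to 50 bases after the start of each gene (RefSeq, GRCm38.p6). Of the 11 with a promoter in the table, 5 held it, and of all 32851 promoters 7.15% did. The D-box TTATGTAA stood in 1 of the 11 and in 0.938% of all promoters. The sequences of Cry1, which rose, and of Ciart, which fell, are shown because both hold the E-box although the genes moved in opposite directions, and that of Klf15 because it is the deleted gene and holds the same letters. Each is on the minus strand, except that of Klf15 on the plus strand, written 5′ to 3′ with the E-box in capitals, at chr10:85185005-85185304, chr3:95882179-95882478 and chr6:90462326-90462625. A match is a description of these letters only.
Cry1: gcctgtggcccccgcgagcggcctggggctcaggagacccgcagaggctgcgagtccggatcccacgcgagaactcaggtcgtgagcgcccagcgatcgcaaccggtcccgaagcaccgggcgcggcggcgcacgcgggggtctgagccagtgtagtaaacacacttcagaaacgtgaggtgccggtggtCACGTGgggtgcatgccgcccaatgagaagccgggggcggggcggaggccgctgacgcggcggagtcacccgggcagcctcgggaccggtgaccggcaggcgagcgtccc
Ciart: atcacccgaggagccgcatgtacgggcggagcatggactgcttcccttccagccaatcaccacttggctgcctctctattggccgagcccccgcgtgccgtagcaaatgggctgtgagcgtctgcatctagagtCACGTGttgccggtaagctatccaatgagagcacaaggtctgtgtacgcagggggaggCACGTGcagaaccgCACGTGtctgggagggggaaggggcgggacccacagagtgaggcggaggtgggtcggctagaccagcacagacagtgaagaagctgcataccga
Klf15: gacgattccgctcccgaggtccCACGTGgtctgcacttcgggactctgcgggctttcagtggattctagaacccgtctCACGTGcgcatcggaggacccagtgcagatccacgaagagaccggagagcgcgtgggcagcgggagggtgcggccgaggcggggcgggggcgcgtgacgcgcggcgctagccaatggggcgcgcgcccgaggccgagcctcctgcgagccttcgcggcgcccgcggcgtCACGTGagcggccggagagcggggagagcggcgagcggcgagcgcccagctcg

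Chemokines moved in both directions. Of 40 cytokine, chemokine and adhesion genes tested, 3 rose, among them Ccl2 and Cxcl5, and 5 fell. Cxcl12, the ligand of Cxcr4 that holds leukocytes in tissue, stood at 2.06, 2.47, 2.55 and 2.68 at 8 h and at 3.68, 4.04, 3.39 and 3.72 at 4 h. It fell without overlap (-1.27 ± 0.16, adjusted p = 1.55e-05), while its saline level differed by 0.08 (adjusted p = 0.892). The lung chemokine Cxcl15, made by epithelium, had 3.98, 3.58, 3.70 and 3.68 at 8 h, against 4.85, 5.03, 5.06 and 4.53 at 4 h (-1.13 ± 0.13, adjusted p = 1.05e-05). Under saline Cxcl15 fell as well (-0.71, adjusted p = 0.0157). Ccl6, another chemokine of myeloid cells, fell by 0.79 on the log2 scale (-0.79, adjusted p = 0.00215). Cxcl12 and Cxcl15 held under every alternative. In these bulk samples fewer cells of a type and less RNA per cell cannot be told apart.

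Lists of blood cell markers moved in different directions, with few calls. All 14 NK cell and cytotoxic genes had negative differences (median -0.75), and 3 were called: Klrd1 (-0.67, adjusted p = 0.035), the pore protein Prf1 (-1.03, adjusted p = 0.039) and the sphingosine receptor S1pr5 (-1.29, adjusted p = 0.0334). Their summed level was 1.08 to 1.77 at 8 h and 1.9 to 3.57 at 4 h, with array 58 the highest. All 10 genes of MHC class II presentation also had negative differences (median -0.61), and H2-Ab1 (-0.67, adjusted p = 0.0239) and H2-DMb1 (-0.82, adjusted p = 0.0175) were called. Each of these calls was lost on leaving out single arrays, 58 in 4 cases of 5 (adjusted p up to 0.152). Besides 58, the arrays were 57, 59, 61, 62 and 63 for Klrd1, 57, 59, 61, 62 and 64 for Prf1, 59, 60 and 61 for S1pr5 (58 not among them), 57, 59, 62 and 63 for H2-Ab1 and 57 and 62 for H2-DMb1. In wild-type lungs 9 of the 14 NK genes and 6 of the 10 MHC class II genes fell, where 6.37% of all genes were called lower. Under saline none was called in the knockout, where only 1.07% of all genes were called.

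Neutrophil markers summed to 18.3 to 54.9 at 8 h and to 36.3 to 87.3 at 4 h, overlapping. Of 17 tested 1 fell, Csf3r, the receptor of granulocyte colony-stimulating factor, at -3.07, -2.61, -3.56 and -2.55 at 8 h and -2.17, -1.32, -1.01 and -1.05 at 4 h. The difference of -1.56 ± 0.46 (adjusted p = 0.0396) was not called without array 58, 59, 60, 61, 63 or 64 (adjusted p up to 0.132), by median scaling (adjusted p = 0.0662) or with slide as a fixed block (adjusted p = 0.138). Monocyte, interstitial macrophage and dendritic cell markers summed to 37.5 to 46.2 at 8 h and to 32.8 to 40.3 at 4 h, and 11 of 17 had positive differences (median 0.13). Of them 1 rose, Cd14, a coreceptor for lipopolysaccharide (0.55 ± 0.16, adjusted p = 0.0354), and 2 fell, among them the receptor gene Treml4 (-0.75 ± 0.13, adjusted p = 0.000587). The call of Cd14 was lost without array 58, 59, 60, 61, 63 or 64 (adjusted p up to 0.132) and by median scaling (0.60, adjusted p = 0.104).

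B cell markers summed to 10.3 to 16.9 at 8 h and to 9.75 to 12.8 at 4 h, while 12 of 15 had negative differences (median -0.39). The 1 called gene, Vpreb3, of the pre-B cell receptor complex, rose by 0.60 ± 0.17 (adjusted p = 0.0264) although 1 array at 8 h overlapped the 4-h range, a call lost without array 58, 59, 62, 63 or 64 (adjusted p up to 0.116) and with slide as a fixed block (0.49, adjusted p = 0.138). All 9 platelet and megakaryocyte markers had positive differences (median 0.45), and none was called. Their sums were 21.5 to 89.1 at 8 h and 27.7 to 34.3 at 4 h.

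Of 28 interferon-stimulated genes 2 rose and none fell, against 3.3 and 3.8% of all genes. Differences were negative for 20 and positive for 8 of them (median -0.09). In wild-type lungs 3 rose and 6 fell (median -0.45), where 5.97% of all genes were called higher and 6.37% lower. Ifit3, an RNA-binding antiviral protein, had 1.80, 1.80, 1.74 and 1.85 at 8 h, against 0.86, 0.85, 1.05 and 1.09 at 4 h. It rose by 0.83 ± 0.10 (adjusted p = 1.43e-05) under every alternative, and it remained below saline at both times, by 1.07 at 8 h (-1.07) and 1.87 at 4 h (-1.87).

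Among 18 endothelial genes 3 rose and 2 fell. Apln, the peptide apelin of sprouting endothelium, was at -1.70, -1.85, -1.62 and -1.58 at 8 h and at 0.34, 0.26, 0.22 and 0.17 at 4 h. Its fall of -1.94 ± 0.21 (3.83-fold lower, adjusted p = 2.19e-06) left no overlap between the groups. A second probe of Apln gave -0.995 (adjusted p = 0.00489), and the dimmest gave -0.64 with no call. Emcn, the sialoglycoprotein endomucin, fell (-0.65 ± 0.08, adjusted p = 1.31e-05). In contrast the factor Sox18 stood at 2.98, 3.03, 3.28 and 3.20 at 8 h and at 2.33, 2.17, 2.10 and 2.45 at 4 h, and it rose by 0.86 ± 0.12 (adjusted p = 5.12e-05). Kdr, the main VEGF receptor, rose by 0.55 ± 0.10 (adjusted p = 0.00153) and the coreceptor Eng by 0.49 ± 0.11 (adjusted p = 0.00829; by median scaling 0.54, adjusted p = 0.0551). The endothelial markers summed to 105 to 122 at 8 h and 102 to 109 at 4 h. Against saline, Apln was lower by 3.46 at 8 h (-3.46) and 1.47 at 4 h (-1.47), and Kdr by 0.68 at 8 h (-0.68) and 1.36 at 4 h (-1.36).

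Matrix genes fell more often than they rose. Of 26 tested, 5 fell and 1 rose (median -0.25). Tnc, the matrix protein tenascin C, was at -4.09, -4.78, -4.56 and -4.94 at 8 h and at -2.76, -2.83, -2.95 and -3.24 at 4 h, a difference of -1.65 ± 0.18 (adjusted p = 1.94e-06). Loxl1, a lysyl oxidase that cross-links elastin, fell (-1.01 ± 0.19, adjusted p = 0.00146), as did the collagen gene Col5a1 (-0.76 ± 0.10, adjusted p = 1.99e-05). Tnc held under every alternative, whereas the dimmest probe of Col5a1 gave -0.21 (adjusted p = 0.786). In wild-type lungs 10 of the 26 fell and 1 rose (median -0.38), where 6.37% of all genes were called lower and 5.97% higher. Of 11 smooth muscle genes 2 rose, one being Lmod1, an actin nucleator (0.37, adjusted p = 0.00496), and their summed level was 88.5 to 92.6 at 8 h and 69.1 to 95.2 at 4 h.

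Of 18 heat shock genes 3 rose and none fell. Hspa1a, an inducible HSP70, had 0.68, 0.79, 1.23 and 1.08 at 8 h, against 0.13, 0.17, 0.06 and 0.18 at 4 h (0.81 ± 0.13, adjusted p = 0.000196), and the near-identical Hspa1b rose by 0.94 ± 0.16 (adjusted p = 0.000411), so the 2 genes may share signal. The mean of its probes ended the call of Hspa1b (0.72, adjusted p = 0.0679). Of 18 genes of the unfolded protein response 3 fell and 1 rose, with Creld2 at -0.45 (adjusted p = 0.00181) and the disulfide isomerase Pdia6 at -0.45 (adjusted p = 0.00704). Median scaling ended the calls of Creld2 (adjusted p = 0.0662) and Pdia6 (adjusted p = 0.0761). Among 20 feedback inhibitors of MAPK and NF-kB 3 rose and 3 fell. Socs3, the inhibitor of JAK and STAT signalling, rose by 0.70 (adjusted p = 0.00425; with slide as a fixed block 0.62, adjusted p = 0.0671), and the phosphatase Dusp2 fell (-0.96, adjusted p = 0.00193). Of 21 immediate-early genes 2 rose, including Ier3 (0.67, adjusted p = 0.00357), and 1 fell, Maff (-0.41, adjusted p = 0.00153; by median scaling -0.36, adjusted p = 0.0833). Klf10 was the only called gene of 15 KLF family members (0.68, adjusted p = 0.0053).

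Apoptosis regulators fell in 3 cases of 20 tested, and none rose. Pmaip1, the BH3-only protein NOXA, was at 2.97, 3.12, 2.26 and 2.62 at 8 h and at 3.42, 3.80, 3.92 and 3.43 at 4 h (-0.90 ± 0.16, adjusted p = 0.000864). It remained above saline, by 2.42 at 8 h and 3.71 at 4 h. The death receptor gene Fas fell too (-0.42, adjusted p = 0.0046), though each array scaled to its median ended that call (-0.37, adjusted p = 0.15). Proliferation genes were lower in 3 of 28 cases and higher in none (median -0.22), with the replication helicase Mcm5 at -0.48 (adjusted p = 0.00313). Median scaling ended that call (-0.43, adjusted p = 0.0797).

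Slc7a10, a transporter of small neutral amino acids, had -1.55, -1.59, -1.43 and -1.38 at 8 h and 0.29, 0.22, 0.27 and -0.16 at 4 h. Its fall of -1.64 ± 0.14 (3.13-fold lower, adjusted p = 1.11e-07) held under every alternative, and it stood against a median of 0.02 over 20 amino acid transporters, of which 1 rose and 2 fell. Of 23 genes of branched-chain amino acid breakdown 2 fell and none rose: Bckdhb, described below, and the dehydrogenase Acadsb (-0.47, adjusted p = 0.00141; by median scaling -0.42, adjusted p = 0.0615). Of 36 other genes of amino acid breakdown 2 fell, the lysine enzyme Aass (-0.55, adjusted p = 0.000568) and the transsulfuration enzyme Cth (-0.53, adjusted p = 0.00296; with slide as a fixed block -0.41, adjusted p = 0.0632), and 1 rose, the glycine methyltransferase Gnmt (0.49, adjusted p = 0.00436). All of Acadsb, Aass, Cth and Gnmt were above saline at both times. Of 27 genes of fatty acid and cholesterol synthesis 3 fell, with Dhcr7, an enzyme of cholesterol synthesis, at -0.49 (adjusted p = 0.0091) by its brightest and -0.10 (adjusted p = 0.774) by its dimmest probe. Median scaling also ended that call (-0.44, adjusted p = 0.18). Fmo1, a flavin monooxygenase, rose by 0.90 (adjusted p = 1.55e-05), and with Cyp4b1 (0.30, adjusted p = 0.00807) it made up the 2 called genes of 22 xenobiotic genes, though Cyp4b1 was not called after quantile normalization (0.18, adjusted p = 0.517). Slc12a2, the sodium, potassium and chloride cotransporter, rose by 0.46 (adjusted p = 0.00038).

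**Figure D4:**
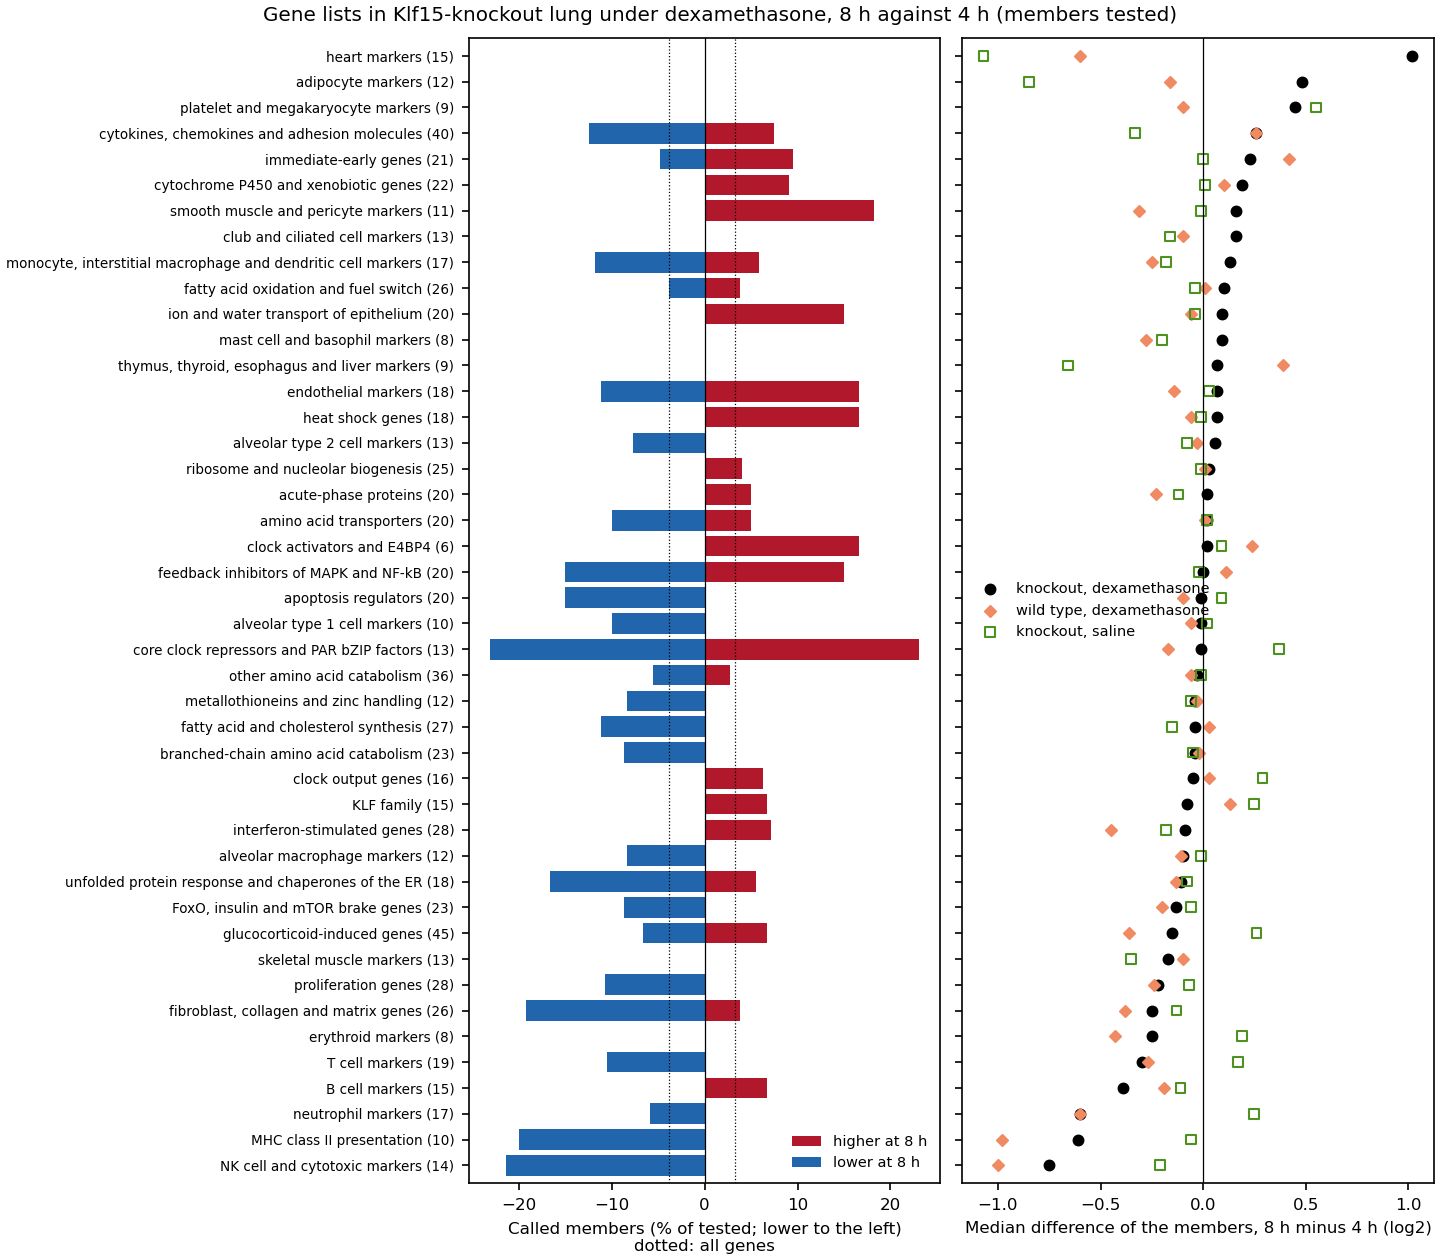
Gene lists (rows, number tested in brackets): left, the share of members called higher (right of 0) and lower (left of 0) at 8 h, with dotted lines at the 3.3 and 3.8% of all genes; right, the median difference between 8 and 4 h (log2) under dexamethasone in knockout (black circles), in wild type (orange diamonds) and under saline in knockout (green squares). The NK cell list has the lowest knockout median (-0.75) and the heart list, with no called gene, the highest (1.02).

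Few differences were called between the courses of lungs without and with Klf15 under dexamethasone. The difference of the 2 courses, knockout minus wild type, was called for 5 genes of 15350 (0.0326%), 2 higher (0.013%) and 3 lower (0.0195%), and 1587 had an unadjusted p under 0.05. Of the 507 genes that rose in the knockout, 480 had a positive difference in the wild type, where 52.8% of all genes did. Of them 309 were called higher there, as were 5.97% of all genes. Of the 584 that fell, 556 were negative in the wild type, against 47.2% of all genes, and 369 were called lower, against 6.37%. The genes shared by direction make up 60.9% of the knockout's rises and 33.7% of the wild type's 917, and 63.2% of the knockout's falls and 37.7% of the wild type's 978. No rise in the knockout was a called fall in the wild type, and 1 fall in the knockout was a called rise there. These comparisons share no array, but they share slides. Knockout 8-h arrays 62, 63 and 64 each lay on a slide with a wild-type 4-h array. Knockout 4-h arrays 59 and 60 each lay on a slide with a wild-type 8-h array. In the difference of the courses both arrays of such a pair enter with the same sign. The part of slide in that difference cannot be fully told apart, and with slide as a fixed block 2 genes were called. A difference that was not called does not show that the courses were equal.

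That 1 gene was Bckdhb, which encodes a subunit of the branched-chain ketoacid dehydrogenase. It was at 0.19, 0.25, 0.13 and 0.17 at 8 h and at 0.59, 0.40, 0.50 and 0.41 at 4 h in the knockout, a fall of -0.29 ± 0.05 without overlap (adjusted p = 0.00076), which was not called by median scaling (-0.24, adjusted p = 0.124) or normexp (-0.18, adjusted p = 0.338). In the wild type it averaged 1.42 ± 0.09 at 8 h (SD, n = 3) and 1.13 ± 0.04 at 4 h (SD, n = 4), a rise of 0.28 (adjusted p = 0.00115). The difference of the courses was -0.57 (limma, adjusted p = 0.00182). That difference was not called by median scaling (-0.49, adjusted p = 0.346), by normexp (-0.26, adjusted p = 0.582) or in the deposited table (-0.27, adjusted p = 0.592). The mean of probes (-0.41, adjusted p = 0.209) and the fit to only the groups compared (adjusted p = 0.145) also ended its call. A second probe of about equal brightness gave -0.19 in the knockout and -0.26 for the difference of the courses, neither called, and slide as a fixed block gave the brighter probe -0.56 for the difference (adjusted p = 0.0611).

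The other 4 genes stood just inside the threshold, each at an adjusted p of 0.0494. Gap43, a growth cone protein, was lower by 1.26 in the knockout's course (-1.26): it fell in the knockout (-1.16, adjusted p = 3.18e-05) and differed by 0.10 in the wild type (adjusted p = 0.767). Angpt2, the angiopoietin that antagonises Tie2, differed by 0.11 in the knockout (adjusted p = 0.605) and rose by 0.93 in the wild type (adjusted p = 1.97e-06), a difference of -0.82. Ppp1r21, at -0.26 in the knockout (adjusted p = 0.0628) and -0.94 in the wild type (adjusted p = 2.49e-07), and the protease Adamts15, at 0.02 in the knockout (adjusted p = 0.951) and -0.78 in the wild type (adjusted p = 2.45e-05), gave 0.68 and 0.79. Without array 61, Ppp1r21 was called in the knockout (-0.34, adjusted p = 0.0136). Leaving out single arrays gave between 1 and 8 called genes. Just outside the threshold were Gadd45g (0.97, adjusted p = 0.091), Rasgrp3 (-1.25, adjusted p = 0.091) and Sh3rf2 (-0.78, adjusted p = 0.097).

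**Figure D5:**
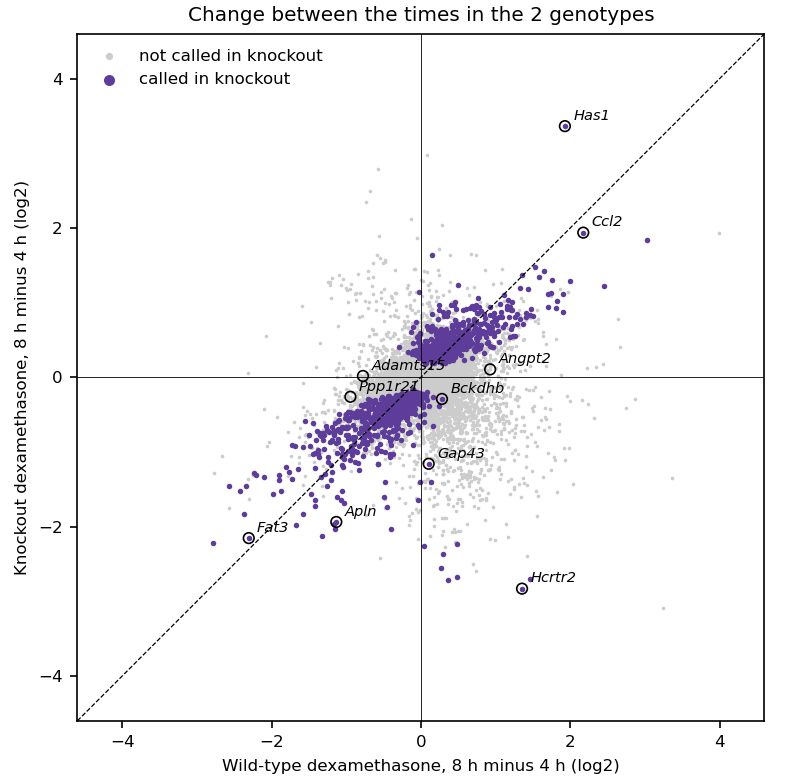
Change between 8 and 4 h under dexamethasone in knockout (y axis, log2) and wild-type lungs (x axis, log2) for each gene; purple points were called in the knockout, circles mark named genes, and the dashed line marks equal changes. Called genes run along the line, and Bckdhb and Gap43 lie below it.

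The course under the drug differed from the course under saline for 462 genes (3.01%), 188 higher and 274 lower. Of the 507 genes that rose under the drug in the knockout, 274 had a positive difference under saline, where 44.1% of all genes did, and of the 584 that fell, 329 were negative, against 55.9% of all genes. Under saline 15 of the 507 were called higher (2.96%, against 0.756% of all genes) and 6 lower. Of the 584, 17 were called lower there (2.91%, against 0.319% of all genes) and 9 higher. Fat3 (-2, adjusted p = 4.21e-07) had the lowest p, with -2.15 under the drug and -0.16 under saline, but the mean of its probes gave -1.08 (adjusted p = 0.296). Sh3rf2, a ubiquitin ligase, rose by 1.12 under the drug and gave -0.36 under saline (difference 1.48, adjusted p = 1.43e-05), and the Wnt receptor Fzd2 rose by 1.10 against -0.25 (difference 1.35, adjusted p = 3.51e-05). Both were below saline at 4 h (Sh3rf2 -2.31, Fzd2 -1.81) and less so at 8 h (Sh3rf2 -0.83, Fzd2 -0.46).

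Genes far above saline at 4 h made up the rest of the 8 with the lowest p. Fam107a was 2.51 above saline at 8 h and 4.33 at 4 h, the protocadherin Pcdh20 was 1.76 above it at 8 h and 3.33 at 4 h, and Fam117b was 0.86 above it at 8 h and 2.04 at 4 h. Mcf2l was raised by 0.61 at 8 h and 1.81 at 4 h, and Fas by 0.66 at 8 h and 1.81 at 4 h. Between the times under the drug Fam107a (-0.29, adjusted p = 0.25) and Pcdh20 (-0.34, adjusted p = 0.111) were not called, whereas under saline they rose by 1.54 and 1.22. Fam117b fell under the drug (-0.66, adjusted p = 3.18e-05), and so did Mcf2l (-0.30, adjusted p = 0.0224), whose call was lost without array 58, 60, 62 or 63 (adjusted p up to 0.077). That call of Mcf2l was lost under 11 of 21 alternatives. Among them were median scaling (-0.25, limma adjusted p = 0.332), the mean of probes (-0.34, adjusted p = 0.128) and normexp (-0.28, adjusted p = 0.0857).

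Only 1 slide held arrays of both times, 61 at 8 h and 57 at 4 h. The other arrays of the times lay on different slides, so time and slide cannot be fully told apart. Arrays on a slide had a consensus correlation of 0.41. With slide as a fixed block 1278 genes were called, of which 831 were among the 1091 of the main fit. Of 768 genes called without arrays 61 and 57, 696 (90.6%) had the same sign on the slide that held both. That share rests on 1 array against 1, and the share over all genes was not computed.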

How the data were processed

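Spot values in the deposited scanner files are intensity values, of which the processed signal was used, and the file headers give the software as version 10.7.3.1 of Agilent Feature Extraction (the submitters' processing notes name 10.6). The deposited series table holds log2 values of the authors, whose normalization no source used here describes, and served as an alternative. Control spots and outlier spots were left out, spots of a probe averaged, and log2 values scaled to each array's 75th percentile. A probe was kept if any group had 3 or more arrays on which it was well above background (33931), named by accession through a RefSeq table (of 41174 probes, 24844 matched 1 gene and 16330 none). Each gene took its brightest kept probe, and 153 genes lacked a value on some of the 8 arrays, which the fit left out. Values quoted for a gene's other probes come from a fit to all kept probes or from the alternative with the dimmest one.

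The means of the 8 groups were estimated together from the 29 arrays in limma 3.58.1 (R 4.3.3), in a script tested on simulated data. Benjamini-Hochberg adjusted p-values under 0.05 within a comparison are called. Differences are given with SE. Where no array of the dimmer group was well above background, a bound is given, from the brighter group's mean and, on each dim array, whichever was larger of the gene's signal and the faintest signal of any probe above background. Such a bound applies to this scaling alone. Marker sums use members with a value on every array.

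Members and gene lists were chosen with earlier results of these data known. Named are Klf15, Nr3c1, Fkbp5, Tsc22d3, Per1, Mt2, Cdkn1a and Dusp1 (Zbtb16 passed no filter), the 12 largest rises and 12 largest falls with a proper symbol whose arrays do not overlap, up to 5 members of each list with the lowest p, of which some are left unnamed, and the 8 genes with the lowest p in each difference of courses. A few genes that this rule names are not reported here. Alternatives were the deposited table, other scalings (quantile, median, normexp), filters and choices of probe, slide as a block, array weights, a variance trend, fits with fewer groups, and every array omitted in turn. The arrays lay on 8 slides.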

Additional observations from a re-analysis of the deposited data

Results flagged for a closer look

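Among 190 groups of 4 arrays tested over the named genes, 7 held 1 array far from the other 3 by Dixon's 95% criterion. Chance flags about 1 in 20 groups. At 8 h these were Them5 on array 64 (-4.59), Fam107a on 61 (3.5) and Vpreb3 on 61 (2.82). At 4 h they were Angpt2 on array 57 (0.03), Socs3 on 57 (1.5), Slc7a10 on 60 (-0.16) and Prf1 on 58 (-2.71).

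By the test of the difference itself, 5 named genes had a different course under dexamethasone in knockout and wild-type lungs. Knockout minus wild type (log2) this was -0.57 for Bckdhb, -0.82 for Angpt2, -1.26 for Gap43, 0.68 for Ppp1r21 and 0.79 for Adamts15. They are all 5 genes called among 15350 (0.0326%), and they were named by their p in that same comparison.

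In knockout lungs 47 of the 96 named genes had a different course under dexamethasone and under saline. Of all genes 3.01% were called in that comparison, 1.22% higher and 1.79% lower. Many named genes were chosen by their change on the same dexamethasone arrays, and 8 by their p in this comparison. The count of 47 is therefore no test. Values are given here as dexamethasone minus saline on the log2 scale. The difference was positive for Has1 (3.5), Ccl2 (2.72), Tmem171 (1.79), Rrad (1.54), Scel (1.23), Tbx18 (2.64), Them5 (1.7), Calcb (1.93), Rasl11a (0.83) and Fgf18 (1.46). Positive values were also found for Sh3rf2 (1.48), Fzd2 (1.35), Dusp4 (0.82), Ier3 (0.95), Socs3 (0.82), Ifit3 (0.8), Kdr (0.68) and Sox18 (0.71). It was negative for Fkbp5 (-2.91), Tsc22d3 (-1.13), Per1 (-1.05), Pilrb2 (-2.34), Fat3 (-2), Fabp1 (-2.04), Bckdhb (-0.3), Gap43 (-0.97), Ppp1r21 (-0.51) and Gadd45g (-1.04). Further negative values belonged to Mcf2l (-1.2), Fam117b (-1.17), Fam107a (-1.82), Fas (-1.15), Pcdh20 (-1.56), Errfi1 (-0.88), Sesn1 (-0.74), Maff (-0.57), Dusp2 (-1.01) and Acadsb (-0.48). Negative, too, were Aass (-0.53), Cth (-0.72), Slc7a10 (-1.53), Cxcl12 (-1.35), Apln (-2), Emcn (-0.65), Tnc (-1.03), Col5a1 (-0.53) and Pmaip1 (-1.29). The knockout saline arrays stand apart in the ratio of bright to dim probes, without overlap between 8 h (-0.213 to -0.118) and 4 h (-0.37 to -0.223). The part of that in these values was not tested.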

How the results depend on the processing

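For knockout dexamethasone 8 against 4 h, 1091 genes were called, against 591 with each array scaled to its median and 304 with the 8 arrays fitted alone; leaving out 1 array gave 777 to 1185. Genes called higher numbered 507, against 125 with the 8 arrays alone and 324 to 593 with 1 array left out, the lowest being without array 59 (324) and array 64 (334). Genes called lower numbered 584, against 248 by median scaling, 380 by normexp, 388 in the deposited table, 179 with the 8 arrays alone and 406 to 645 with 1 array left out. The other alternatives for these counts stayed within 1.5 times. Of 82 called genes named for that comparison, 28 kept call and direction under every alternative that measured them, and 67 to 74 did so when 1 array was left out. The dimmest probe reversed Per2 (-0.46) and Nr1d1 (0.10), neither called. The 5 genes whose courses differed between genotypes became 3 by quantile normalization, 2 by normexp, in the deposited table or with slide as fixed block, 1 without a filter or with array weights, 9 with slide as random block, and 1 to 8 with 1 array left out. With limma they became 0 by median scaling (987 at an unadjusted p under 0.05), by the mean of probes (1533), by the dimmest probe (1459) and with only the groups compared (1310). The 462 genes whose course differed from saline became 207 by median scaling, 294 with only the groups compared, 890 with slide as random block, 1224 with array weights and 277 to 469 with 1 array left out, the lowest without knockout saline 4-h replicate 41. Apart from the smaller number of arrays in the fits that use fewer of them, the cause was not tested. Dim genes have only bounds, and these apply to the scaling used here alone. No paired analysis was possible because the groups compared share no replicate numbers.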
